A study of Homo sapiens with 2 samples.

Results

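The 50 genes described here encode the machinery that attaches, aligns and separates chromosomes in mitosis. They were taken as a fixed list and matched by the gene symbol of the array annotation, using only probe sets assigned to exactly 1 symbol. All 50 were on the array, out of 19775 genes measured in this way. All 50 were also above the detection level of 0.92, the median over non-control probe sets of the mean of both arrays, as were 13150 genes in all. Between the miR-941 and the control array they differed by -0.46 (CENPF) to 0.47 (SPC25) on the log2 scale, around a median of 0.02.

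The cells were 293T, a human embryonic kidney line that carries the SV40 large T antigen and divides rapidly in culture. They had been transfected with 30 nmol/l of synthetic miR-941 or of a scrambled oligonucleotide, and RNA recovered by immunoprecipitation was hybridised to 1 Affymetrix U133 Plus array per condition. For the miR-941 array the RNA was pulled down with anti-Ago2 (Ago2 is an Argonaute, the protein family that carries microRNAs to mRNAs). For the control array the sample title names an Ago2 precipitate but its antibody entry gives nonimmune IgG beads. Should that entry be right, effects of the oligonucleotide cannot be told apart from effects of the antibody. No array held input RNA, so recovery by the precipitation and abundance in the cells cannot be told apart either. With 1 array per group the conditions could not be compared by a test, and p-values are not given. Of 10 genes fixed as markers of the parent line, 8 were above the detection level. Of 24 measured markers of other cell types, 8 were, and 7 of these 8 read no higher than 2.72 on either array. The eighth was the globin gene HBB, which read 6.95 (control) and 7.54 (miR-941), from an _x_at probe set, a suffix given to probe sets that may bind unrelated transcripts.

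At mitosis the kinetochore forms on centromeres that carry the histone variant CENP-A, and its outer layer grips spindle microtubules. Unattached kinetochores hold back the anaphase-promoting complex through the spindle checkpoint, and once that block is lifted, cyclin B and securin are destroyed and sister chromatids part. The mRNAs of many of these proteins are made in G2 and mitosis, from promoters that combine CCAAT boxes, bound by the factor NF-Y, with a cell cycle homology region, the element through which the MuvB complexes DREAM and MMB-FOXM1 act.

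The microRNA added in excess is printed first, because its seed, bases 2 to 8 in capitals, is the part that pairs with target mRNAs. The sequence is that of RefSeq on GRCh38.p14, where 5 loci on chromosome 20 give the same 23 bases, and no other mature miRNA in that table shares the seed.
hsa-miR-941: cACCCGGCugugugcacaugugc

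Promoter elements are what most of these genes had in common beside their function. RefSeq promoter windows of 300 bases (250 before the start site and 50 after) were matched for 41 of the 50 genes. The cell cycle homology region was searched as TTTGAA or TTTAAA and the CCAAT box as CCAAT, on both strands. TTTAAA reads the same on either strand, and neighbouring matches may share bases. A homology region match was present for 34 of 41 mitotic genes (82.9%), against 24.7% of 15843 protein-coding genes. CCAAT was present for 34 of 41 (82.9%) as well, against 42.1%. Both were present for 27 of 41 (65.9%), against 10.4%. Genes with several windows count as matched when any window held the letters, and in the 34 mitotic genes with 1 window the shares were 82.4%, 79.4% and 64.7%, against 19.7%, 37.2% and 8.23% of protein-coding genes with 1 window. Over all 35116 windows of the table the shares were 24.0%, 34.6% and 9.27%.

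The 200 bases before the start site are shown for 4 genes, chosen after their values were seen to show promoters from both sides of zero: CCNB1, higher on both of its probe sets, CCNB2 and PLK1, at or near no difference, and CENPF, the lowest of the 50. The capitals mark the homology region letters and the CCAAT boxes on either strand. The stretches, on the plus strand of GRCh38.p14, are chr5:69166950-69167149 (CCNB1), chr15:59104946-59105145 (CCNB2), chr16:23678689-23678888 (PLK1) and chr1:214602995-214603194 (CENPF).
CCNB1: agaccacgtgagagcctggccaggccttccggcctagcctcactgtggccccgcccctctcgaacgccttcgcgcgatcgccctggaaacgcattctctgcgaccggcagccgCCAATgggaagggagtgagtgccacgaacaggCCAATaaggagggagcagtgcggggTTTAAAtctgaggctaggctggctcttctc
CCNB2: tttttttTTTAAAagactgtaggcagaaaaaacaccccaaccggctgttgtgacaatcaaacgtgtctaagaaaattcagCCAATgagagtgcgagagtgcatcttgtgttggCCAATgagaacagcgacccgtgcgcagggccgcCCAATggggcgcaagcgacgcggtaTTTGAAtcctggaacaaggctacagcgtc
PLK1: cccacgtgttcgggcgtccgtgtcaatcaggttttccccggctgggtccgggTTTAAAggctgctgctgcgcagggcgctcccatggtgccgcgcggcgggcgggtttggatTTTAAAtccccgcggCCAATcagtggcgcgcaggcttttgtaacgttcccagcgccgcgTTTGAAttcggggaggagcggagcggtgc
CENPF: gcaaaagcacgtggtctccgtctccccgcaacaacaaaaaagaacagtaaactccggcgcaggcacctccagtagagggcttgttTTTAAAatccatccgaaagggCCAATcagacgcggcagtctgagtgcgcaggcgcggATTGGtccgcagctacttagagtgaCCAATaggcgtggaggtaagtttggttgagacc
In CCNB1, CCNB2 and PLK1 the homology region nearest the start site began 30, 29 and 29 bases before it. CCAAT boxes began 87 and 55 bases before the start in CCNB1 and 120, 87 and 54 bases before it in CCNB2. CENPF had 3 CCAAT boxes, 1 of them on the other strand, and its TTTAAA lay 115 bases before the start. Its window also holds TTTGAA, outside the printed stretch.

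**Figure D1:**
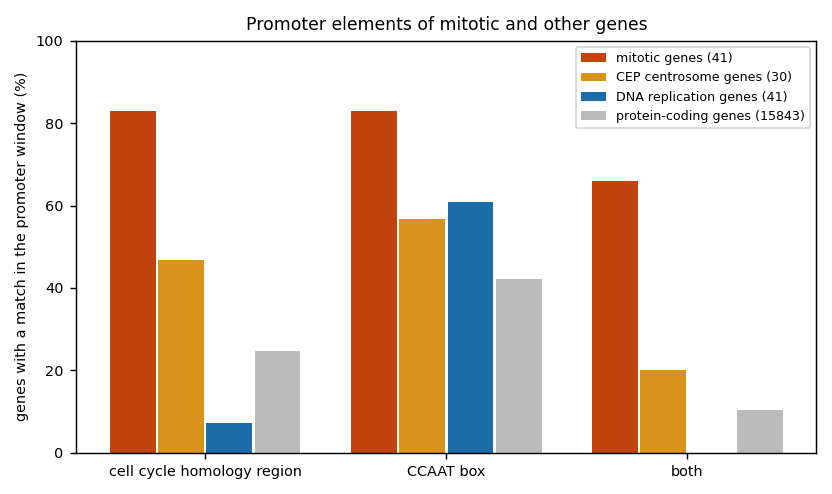
Percentage of genes (vertical axis) with a match to the cell cycle homology region, the CCAAT box or both (horizontal axis) in their RefSeq promoter windows. Bars stand for mitotic genes, CEP centrosome genes, DNA replication genes and protein-coding genes, with the number of genes in the key. The mitotic genes have the tallest bar in each set, and no DNA replication gene holds both elements.

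The same letters were less frequent in promoters of 2 neighbouring gene groups. Among 41 DNA replication genes with a window, whose mRNAs are made from late G1 on, the homology region was present for 3 (7.32%), CCAAT for 25 (61.0%) and both for 0. Among 30 genes of the CEP centrosome family the counts were 14 (46.7%), 17 (56.7%) and 6 (20.0%). A match is a run of letters and not a binding site. On the arrays, the 34 mitotic genes with a homology region match had a median log2 difference of 0.06 (19 higher, 12 lower), and the 7 without had -0.03 (2 higher, 4 lower). By TTTGAA alone the order was the other way, with 0.02 for the 28 with it and 0.13 for the 13 without, and by CCAAT the medians were 0.02 for 34 and 0.03 for 7.

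The deposited values are 1 per probe set, taken as log2, and each gene is given here by its brightest probe set. The difference is the miR-941 array minus the control array. None of the 50 genes differed by 2-fold or more, where 0.517% of all detected genes and 0.136% of those above the 75th percentile of level did, a share that would put fewer than 1 gene in a list of this length. None differed by 1.5-fold either, against 5.82% of detected genes and 2.94% of the 8086 genes above that percentile, the range that held 49 of the 50. At 1.25-fold or more, 5 were higher and 4 lower, 9 in all. Of detected genes 12.7% were higher and 11.7% lower by this much, 24.4% in all, and 18.6% of those above the 75th percentile passed in either direction. On the miR-941 array 26 of the mitotic genes read higher and 20 lower, and 4 had equal values. Averaged over detected probe sets the balance turned, with 22 higher and 25 lower. By brightest probe set their median difference was 0.02 and the SD over genes 0.22. Among all detected genes 46.3% were higher, 42.4% lower and 11.3% equal, around a median of 0.00 with an SD of 0.30. The SD was 0.23 over the 4963 genes within the middle 80% of the mitotic genes' level. The differences of the list lay around zero with about the spread of genes of like brightness. In RNA recovered from pooled cells, the share of cells in mitosis and the amount of mRNA per cell cannot be told apart.

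**Figure D2:**
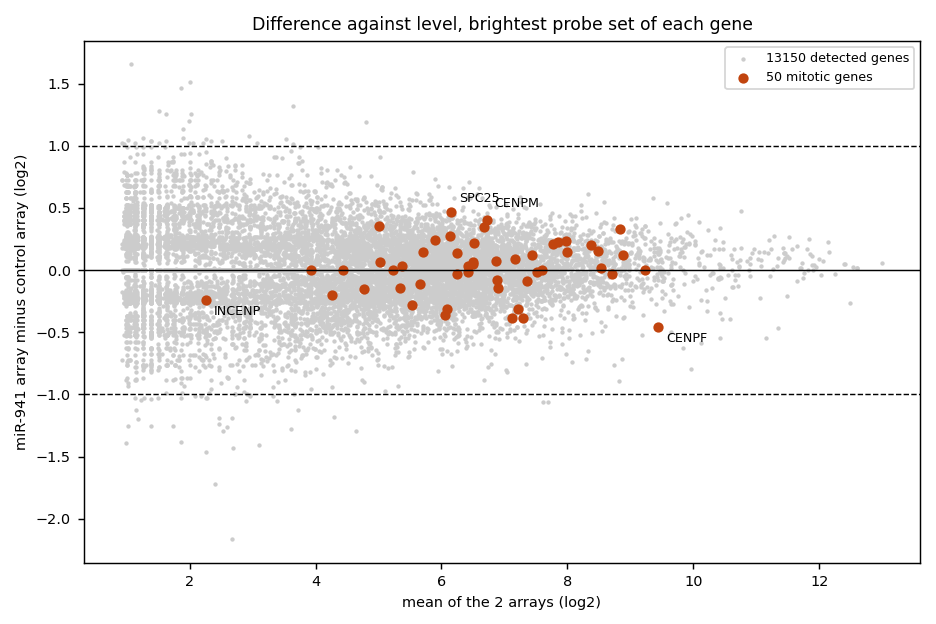
Log2 difference between the arrays (vertical axis) against the mean of both arrays (horizontal axis) for 13150 detected genes in grey and 50 mitotic genes in red, 1 point per gene, with dashed lines at 2-fold. The mitotic genes lie from -0.46 (CENPF) to 0.47 (SPC25), inside the dashed lines.

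Probe sets of the same gene give the only measure of technical spread, and they share 1 hybridisation per array, so they are not replicates. The 50 genes had 84 detected probe sets, with 23 genes on 2 or more and 27 on 1. Over the 2 brightest detected probe sets the within-gene SD of the difference was 0.22 in mitotic genes and 0.29 in all 6106 genes with a pair. It was 0.21 and 0.23 when the probe sets were limited to those above the 75th percentile of level. The within-gene SD was of the same size as the SD between the mitotic genes, so most gaps in their order are no wider than the spread among probe sets of the same gene. In 11 of the 23 genes (47.8%) all detected probe sets differed the same way, 7 higher and 4 lower, against 33.5% of all such genes (16.5% higher and 17.1% lower). The 7 were AURKA, CCNB1, CDC25C, KIF2C, ECT2, NUSAP1 and TOP2A, and the 4 were CENPF, ESPL1, AURKB and WEE1. All 11 had exactly 2 detected probe sets, and the second of CDC25C was below the detection level on the control array. Those of KIF2C (2.50 and 2.94), ECT2 (2.49 and 2.68) and AURKB (2.59 and 2.47) were dim, below the 75th percentile of level. None of the 8 genes with 3 or more was uniform, and in 10 genes probe sets lay on both sides of zero. Above the 75th percentile of level, the 2 brightest probe sets agreed in direction in 8 of 13 mitotic genes (61.5%). The share was 60.3% of 2559 such genes in all, pairs with an equal value left out.

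**Figure D3:**
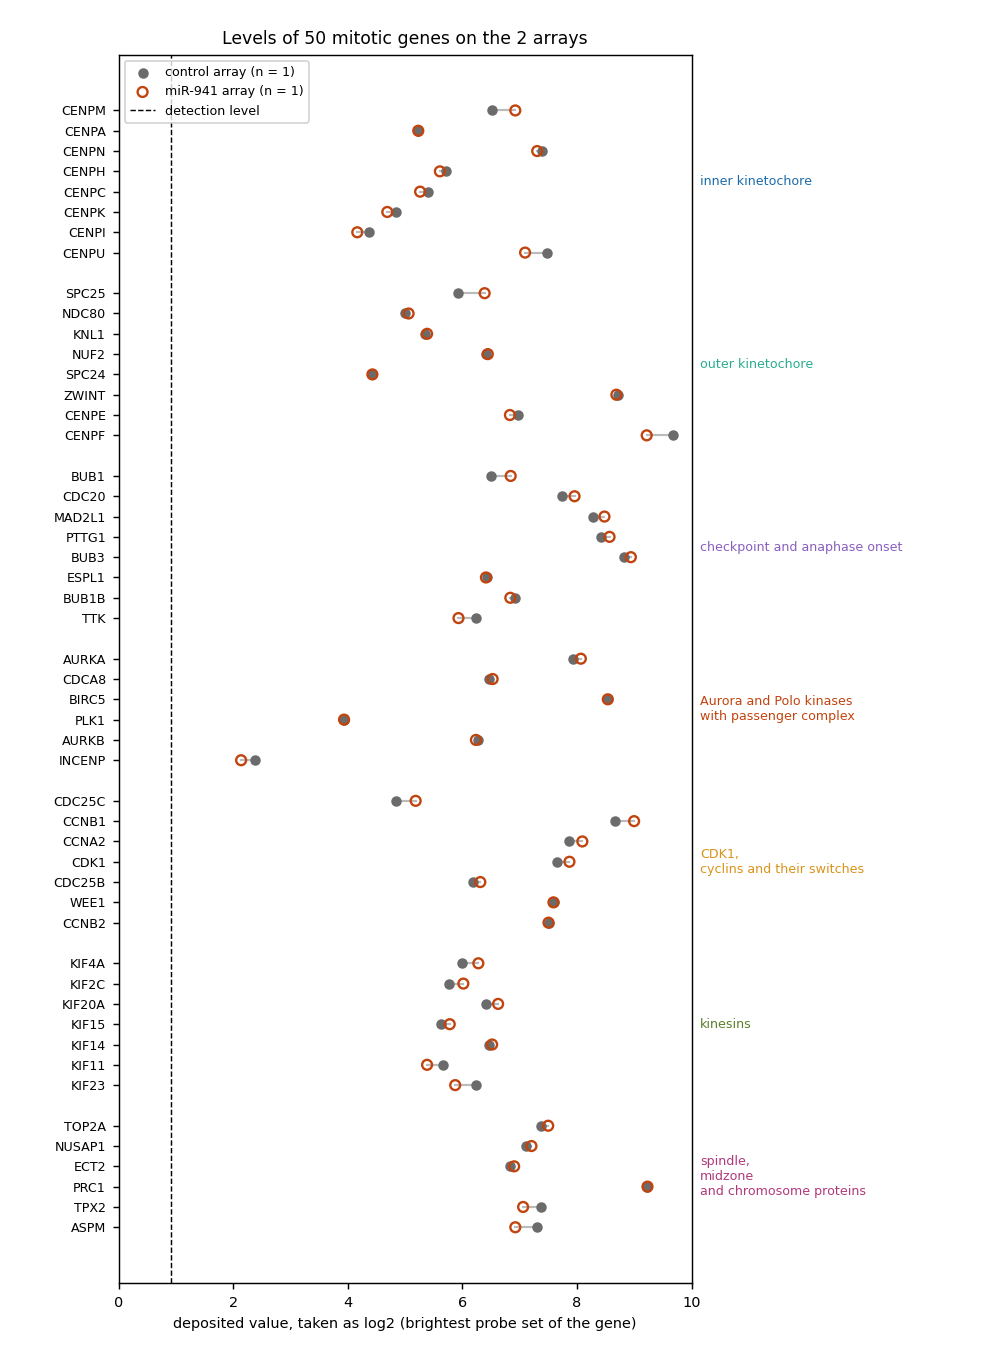
Deposited value taken as log2 (horizontal axis) for each gene's brightest probe set, with the control array as filled grey points, the miR-941 array as open red points and the detection level as a dashed line, 1 array each. Genes are grouped by role, and within every gene the points lie less than 0.5 apart.

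Inner kinetochore genes were lower for 6 of 8, with a median difference of -0.13. With the mean or the median over detected probe sets 4 of 8 were lower and the median was -0.06. Their products form the layer that binds centromeric chromatin throughout the cell cycle. CENPU, a subunit of the CENP-O group that helps recruit Polo kinase, read 7.48 (control) and 7.09 (miR-941), or -0.39. Its other probe sets, both dim, had -0.57 and 0.00. The one at 0.00 is the only one that does not carry the _s_at suffix, given to probe sets that match several transcripts. CENPI, which helps load new CENP-A, read 4.37 and 4.17 (-0.20), but its second probe set was higher by 0.25, so the median over both was 0.02.

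The remaining lower genes of this layer differed by less. CENPK read 4.84 and 4.69 (-0.15), and CENPC, the scaffold that links CENP-A chromatin to the outer kinetochore, read 5.40 and 5.26 (-0.14). CENPH read 5.72 and 5.61 (-0.11) from an _x_at probe set. CENPN, a reader of the CENP-A nucleosome, read 7.40 and 7.31 (-0.09), with its other detected probe sets at 0.11 and 0.02. The exception was CENPM, at 6.52 and 6.92 (0.40) on its only probe set, the 1 higher gene of the 8. CENPA itself, the histone variant that marks the centromere, read 5.23 on both arrays from an _x_at probe set.

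Outer kinetochore genes had a median of 0.02, with 4 higher, 3 lower and 1 equal, and held both ends of the whole list. CENPF, a large coiled-coil protein of the corona that accumulates in G2, was the lowest of the 50: its brighter probe set read 9.68 (control) and 9.22 (miR-941) (-0.46, 0.727 of the control value on the linear scale), and the other detected one read 6.28 and 5.91 (-0.37). Both detected CENPF probe sets were lower and both carry the _s_at suffix. CENPE, the kinesin that carries chromosomes toward the metaphase plate, read 6.97 and 6.83 (-0.14).

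SPC25 was the highest of the 50, at 5.92 (control) and 6.39 (miR-941) (0.47, or 1.38-fold), on its only probe set. SPC25 belongs to the NDC80 complex, the main microtubule grip of the kinetochore, and its 3 partners did not share that difference. NDC80 read 5.00 and 5.06 (0.06), NUF2 6.41 and 6.44 (0.03), and SPC24, its direct partner, 4.43 on both arrays with a second, dim probe set at -0.36. The median of the 4 subunits was 0.05. ZWINT, which ties the checkpoint to the kinetochore, read 8.72 and 8.69 (-0.03). KNL1, the platform for BUB1 and BUB3, read 5.35 and 5.38 (0.03), while its other detected probe sets, both dim, had 0.59 and -0.78. KNL1 was the gene whose probe sets disagreed most, with an SD of 0.69.

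**Figure D4:**
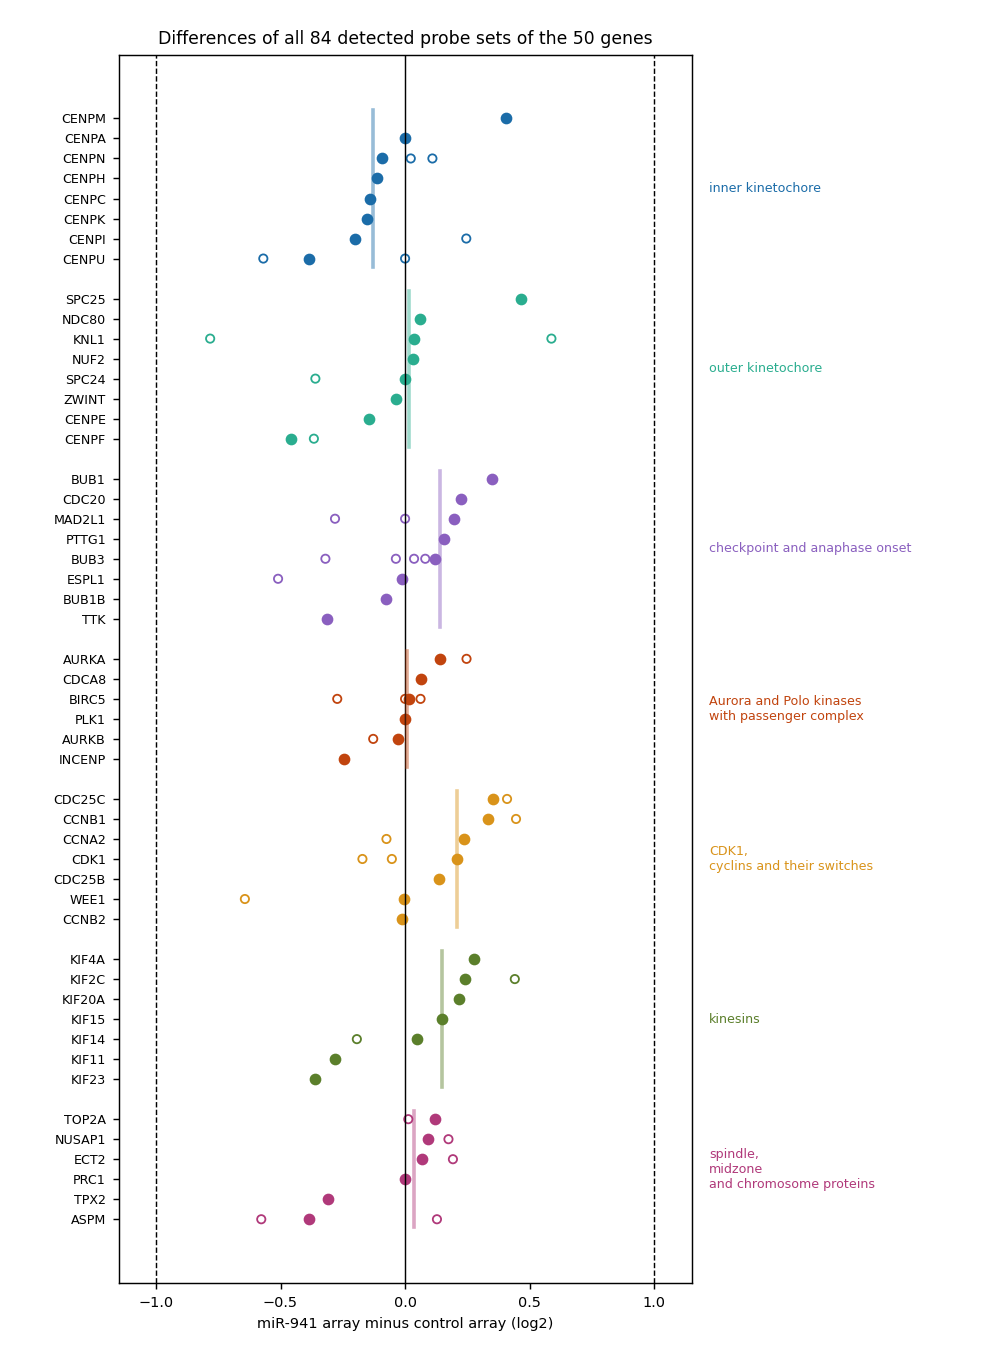
Log2 difference between the arrays (horizontal axis) for all 84 detected probe sets of the 50 genes, with filled points for the brightest probe set, open points for the others, thick bars for the median of each role group and dashed lines at 2-fold. No probe set passes 2-fold, and the widest pair of points within a gene is that of KNL1, at 0.59 and -0.78.

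Checkpoint and anaphase genes were higher for 5 of 8, with a median of 0.14. BUB1, the kinase that marks centromeric histone and recruits checkpoint proteins, read 6.50 and 6.84 (0.35) on its only detected probe set. MAD2L1, the subunit that captures CDC20, read 8.28 and 8.48 (0.20), but its other detected probe sets had -0.28 and 0.00. CDC20, the activator of the anaphase-promoting complex, read 7.73 and 7.96 (0.23) on its only probe set. The direction for MAD2L1 thus depends on the probe set, and for BUB1 and CDC20 it rests on 1.

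BUB3, which docks BUB1 and BUBR1 on KNL1, read 8.82 and 8.94 (0.12), with a median of 0.04 over 5 probe sets, 3 higher and 2 lower. The lowest of the 5, at -0.32, was dim (1.66 and 1.34). PTTG1, or securin, the inhibitor of separase, read 8.41 and 8.57 (0.16) from an _x_at probe set, which may also bind its near-identical copies, so that value is uncertain. On the other side TTK, the MPS1 kinase that starts checkpoint signalling, read 6.25 and 5.93 (-0.31). BUB1B, which encodes BUBR1, read 6.91 and 6.84 (-0.08). ESPL1, the separase that cuts cohesin, read 6.42 and 6.41 (-0.01) on one probe set and had -0.51 on the other. This group changed most with the choice of probe set. Without _x_at and _s_at probe sets its median was -0.18. With the mean over detected probe sets it was -0.03, with 3 higher and 5 lower. In both settings BUB3 counted as lower because of its dim probe set.

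The Aurora and Polo kinases and the chromosomal passenger complex were close to zero, with a median of 0.01, 3 higher, 2 lower and 1 equal. AURKA, the kinase of centrosomes and spindle poles, read 7.93 (control) and 8.07 (miR-941) (0.14), with its second detected probe set at 0.25. AURKB, the catalytic subunit of the passenger complex, read 6.27 and 6.24 (-0.03), with a second, dim one at -0.13. The paralogs lay on opposite sides of zero by amounts below the within-gene SD.

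Among the other passenger subunits, INCENP, the scaffold, read 2.38 and 2.14 (-0.24) and was the 1 gene of the 50 below the 75th percentile of level. CDCA8, or borealin, read 6.47 and 6.53 (0.06). BIRC5, or survivin, read 8.52 and 8.54 (0.02), with 4 probe sets from -0.27 to 0.06. The 4 passenger genes had a median of -0.01. PLK1, the Polo kinase, read 3.93 on both arrays.

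The genes of CDK1, its cyclins and its switches had a median of 0.21, with 5 higher and 2 lower. With the mean or the median over detected probe sets the median was 0.08, with 4 higher and 3 lower. CDC25C, a phosphatase that activates CDK1, read 4.83 and 5.18 (0.35), with its second detected probe set at 0.41. CCNB1, or cyclin B1, the partner of CDK1 at mitotic entry, read 8.67 (control) and 9.00 (miR-941) (0.33), with its second at 0.45. Both probe sets of CCNB1 and both of CDC25C were higher, with medians of 0.39 and 0.38. CCNB2, the second B-type cyclin, read 7.52 and 7.50 (-0.01) and did not share the difference of CCNB1.

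CCNA2, cyclin A2, which acts from S phase to early mitosis, read 7.86 and 8.09 (0.24) on one probe set and had -0.07 on the other. CDK1 read 7.66 and 7.87 (0.21), but its other detected probe sets were lower and its median was -0.05. The call of a higher level was therefore uniform over probe sets for CCNB1 and not for CDK1 or CCNA2. For CDC25C it rested on the brighter probe set. CDC25B read 6.18 and 6.31 (0.13). WEE1, the kinase that restrains CDK1, read 7.59 on both arrays, differing by less than 0.01, while its _s_at probe set read 6.18 and 5.54 (-0.64), the widest gap between the probe sets of a gene in this group.

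The kinesins were higher for 5 of 7, with a median of 0.15, and the 2 lower ones were KIF11 and KIF23. KIF4A, a chromosome-bound motor that limits midzone length, read 6.00 and 6.28 (0.28). KIF2C, the MCAK depolymerase that corrects faulty attachments, read 5.77 and 6.02 (0.24), with its second probe set at 0.44. KIF20A, which acts in cytokinesis, read 6.41 and 6.62 (0.22). Of these, only KIF2C had a second detected probe set to compare, and that one was dim.

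KIF15, a motor that supports spindle bipolarity, read 5.63 and 5.78 (0.15). KIF14, a cytokinesis motor, read 6.47 and 6.52 (0.05), with its second probe set at -0.19. KIF11, or Eg5, which pushes spindle poles apart, read 5.67 and 5.38 (-0.28). KIF23, the motor of the centralspindlin complex, read 6.24 and 5.87 (-0.36). KIF11 and KIF15, which both keep the spindle bipolar, lay on opposite sides of zero, each on 1 detected probe set.

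Spindle, midzone and chromosome proteins had a median of 0.03, with 3 higher, 2 lower and 1 equal. ASPM, a spindle pole protein, read 7.31 and 6.92 (-0.39). Its other probe sets, both dim, were at -0.58 (2.76 and 2.18) and 0.13 (2.60 and 2.73). Without _s_at probe sets ASPM was represented by the one at 0.13. TPX2, which activates Aurora A on spindle microtubules, read 7.37 and 7.06 (-0.31) on its only probe set. PRC1, the bundler of midzone microtubules, read 9.23 on both arrays.

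The higher members of this group were closer to zero and uniform over their detected probe sets. TOP2A, topoisomerase II alpha, which untangles sister chromatids, read 7.38 and 7.50 (0.12), with a second at 0.01. NUSAP1, a microtubule bundler, read 7.12 and 7.21 (0.09), with a second at 0.17. ECT2, which activates RhoA at the cleavage site, read 6.83 and 6.90 (0.07), with a second, dim one (2.49 and 2.68) at 0.19.

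By brightest probe set, the genes of the 50 with the shortest genomic span were more often higher, and the others were split about evenly. Spearman's rho between the difference and the span of the gene in RefSeq was -0.30 over the 50 and -0.10 over 13139 detected genes. It was -0.13 over 8085 genes above the 75th percentile of level. These are correlations across genes that share the same pair of arrays, given as descriptions. The 17 shortest genes, from 4.05 to 19.2 kb, were higher for 11 and lower for 3, with a median of 0.12. The 16 in the middle, from 19.9 to 40.5 kb, were higher for 7 and lower for 8, with a median of -0.01. The 17 longest, from 45.1 to 131 kb, were higher for 8 and lower for 9, with a median of -0.08, and included CENPF, ASPM, TPX2 and KIF11 on the lower side and the longest, KIF4A, on the higher side. On the same arrays the 5' control probe set of the actin mRNA read 7.15 (control) and 6.49 (miR-941) (-0.66), while its 3' control had -0.04. For GAPDH these were -0.19 and 0.05. Genomic span is not mRNA length, and the part of the 5' to 3' difference in these values was not tested.

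Other genes of chromosome segregation gave medians on both sides of zero. Of 22 detected further kinetochore genes 12 were higher and 9 lower (median 0.01), with DSN1, a subunit of the MIS12 complex, at 0.50, ZW10 at 0.38, SGO1, the protector of centromeric cohesion, at -0.52 and CENPT at -0.78 from a dim probe set (1.91 and 1.12). Of 22 further spindle and cytokinesis genes 8 were higher and 13 lower (median -0.08). The lowest were ANLN, the anillin of the contractile ring, at 9.22 and 8.50 (-0.71), and KIFC1 at -0.64, and the highest were CKAP2L at 0.43 and the phosphatase CDC25A at 0.41. Differences in both lists reached below the range of the 50, and their SDs were 0.30 and 0.33 against 0.22.

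The anaphase-promoting complex and its partners were higher for 11 of 17 (median 0.09), from ANAPC2 (0.50) and ANAPC4 (0.40) to UBE2S (-0.29) and the inhibitor FBXO5 (-0.42). The only detected probe set of ANAPC2 was dim (1.14 and 1.64). Cohesin and condensin genes, which hold and compact sister chromatids, were higher for 5 of 18 and lower for 13 (median -0.15), from NCAPH (0.19) and SMC3 (0.18) to STAG1 (-0.37) and SMC2 (-0.47). The 50 mitotic genes thus had a median between these lists. Regulators of mitotic transcription were higher for 8 and lower for 7 of 16 (median 0.02), with LIN52, a MuvB subunit, at 0.35, E2F3 at 0.18, and the CCAAT-binding NF-Y genes NFYA and NFYB at -0.30 and -0.41.

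DNA replication genes were higher for 36 of 47 and lower for 8, with a median of 0.10, while the mitotic genes were higher for 26 of 50 and lower for 20. LIG1, the ligase that joins lagging-strand fragments, had 0.76 and RPA1 0.52, while POLA1 had -0.11 and the checkpoint adaptor CLSPN, at 4.28 and 3.16, had -1.13, past 2-fold. CEP centrosome genes were higher for 8 of 29 and lower for 18 (median -0.09), from CEP76 (0.59) and CEP43 (0.54) to CEP131 (-0.57) and CEP70 (-0.66). With 1 array per group, whether these lists differ from the 50 mitotic genes could not be tested over samples.

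**Figure D5:**
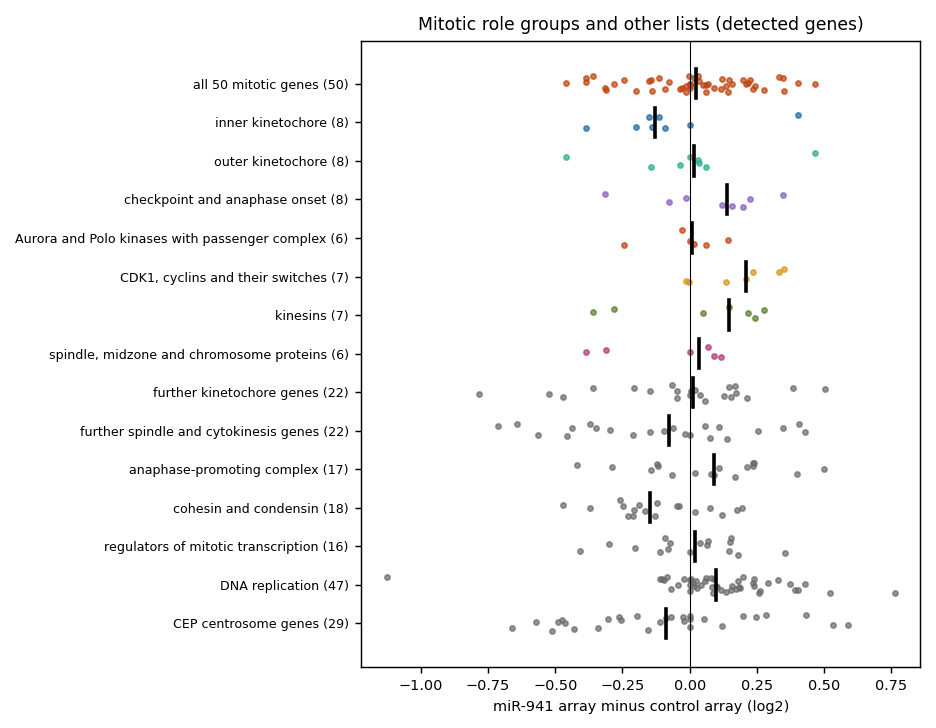
Log2 difference between the arrays (horizontal axis) for the detected genes of each list (rows, with their number in brackets), 1 point per gene and a black bar at the median. The inner kinetochore bar lies at -0.13 and the CDK1 and cyclin bar at 0.21, and the individual genes of all role groups overlap.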

How the data were processed

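Values are those the authors deposited: 1 log2 expression value per probe set and array, quantified with RMA in R per the labels. Per the submitters' processing notes, RMA, affy and MAS5 were used, with no version given. Scale and centring are not written there. The deposited values reach above what a natural logarithm of a 16-bit reading allows, so log2 was taken as the scale, and array medians were 0.92 (control) and 0.98 (miR-941). Groups follow the transfected oligonucleotide. Of 54675 probe sets, 41091 had 1 gene symbol, 1801 several and 11721 none, and 62 were controls. The Entrez identifiers of 41037 were found in RefSeq GRCh38.p14, whose symbols were used. For the 50 genes they were the same as in the annotation. Differences, counts and medians were computed with Python 3.11.15, pandas 2.3.3 and statsmodels 0.14.6. Known shifts added to the values of some genes were read back, a check of the code and not of the results. The number of arrays limits the precision.

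The members and lists were chosen with earlier results of these data known. Genes named from other lists are the 2 highest and 2 lowest of each list. Alternatives were another summary of probe sets, other filters on suffix and level, centring, loess (span 0.3), raising low values to the detection level, and other fold thresholds.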

Additional observations from a re-analysis of the deposited data

How the results depend on the processing

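No paired analysis was possible because there was only 1 array per condition, which also left none to omit. The median difference of the 50 genes, 0.02, ranged from -0.00247 to 0.03 over 9 alternatives, 1 of them (leaving out the 3 genes on _x_at probe sets) chosen after seeing the data. Dropping the level filter, raising low values and centring could change neither this median nor the counts. All 50 genes read above the detection level on both arrays, and the median of all detected genes was already 0.00. No gene reached 2-fold under any of the 9, and by brightest probe set none reached 1.5-fold. The count at 4-fold follows from that at 2-fold. Without _x_at and _s_at probe sets 36 genes kept a value, 17 of them higher and 15 lower, and the checkpoint median was -0.18 in place of 0.14. Fewer genes are tested there. With the loess trend removed 28 were higher, 22 lower and 0 equal, as that step moves every value. Directions of single genes depended most on the probe set. With differences averaged over probe sets 22 genes were higher and 25 lower, and 8 changed sign (CENPI, CENPN, KNL1, BUB3, MAD2L1, BIRC5, CDK1 and KIF14), and without _x_at and _s_at probe sets 3 did (BUB3 at -0.32, MAD2L1 at -0.28 and ASPM at 0.13). The inner kinetochore median stayed below zero, from -0.15 to -0.06. Above zero stayed the medians of the kinesins (0.15 to 0.18), the CDK1 group (0.08 to 0.21) and the spindle, midzone and chromosome group (0.01 to 0.09). Dim probe sets limit INCENP and the weaker readings of KNL1, SPC24, BUB3, ASPM, CENPU, CDC25C, KIF2C, ECT2 and AURKB, among others. The sign changes of BUB3 and ASPM without _x_at and _s_at probe sets rest on such dim probe sets.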

Other observations

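A probe set annotated to both CENPA and SLC35F6 took no part in the counts. It read 7.11 (control) and 7.34 (miR-941), a log2 difference of 0.22, where the CENPA probe set with 1 symbol read 5.23 on both. Which of the genes it measures was not tested.

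Exactly equal values on both arrays were found for 7 of the 84 detected mitotic probe sets (8.33%), among them those of PRC1, PLK1 and CENPA, and for 3491 of all 27286 detected probe sets (12.8%). Above the 75th percentile of level the counts were 6 of 70 (8.57%) and 863 of 13676 (6.31%).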
